A study of Mus musculus with 8 samples.

Results

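De novo fatty acid synthesis turns citrate into long-chain fatty acids, and 10 of the 25239 genes in the deposited count table encode the enzymes described here. The 10 were chosen by name and function, with earlier results of these data known. They run from the citrate-cleaving enzyme to the desaturases: Acly, Acaca, Acacb, Fasn, Elovl5, Elovl6, Scd1, Fads1, Fads2 and Me1. All 10 were in the table, and all 10 were among the 14861 genes that passed the filter on low counts. RNA was sequenced from livers of adult male mice, with 4 control and 4 knockout libraries. Controls carry loxP-flanked (fl/fl) alleles of Zfp36l1, written Zf36l1 fl/fl in their titles, and their genotype field reads WT. Knockouts carry the same fl/fl alleles together with Alb-Cre, a recombinase under the albumin promoter, so the deletion is limited to cells in which that promoter has been active, chiefly hepatocytes. The groups thus differ both in the Cre transgene and in Zfp36l1, and no diet, fasting state, time of collection or treatment is named for any library.

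ZFP36L1 recognises AU-rich stretches of the untranslated region (UTR) at the 3′ end of mRNAs through its zinc fingers and speeds their decay. In the liver, fatty acid synthesis runs in the cytosol after feeding. Citrate leaves the mitochondrion and is cleaved to acetyl-CoA, which is carboxylated to malonyl-CoA, the unit that fatty acid synthase adds step by step with NADPH until palmitate is released. Elongases and desaturases of the endoplasmic reticulum then lengthen palmitate or place double bonds in it, and they also process dietary polyunsaturated fatty acids. The transcription factors SREBP-1c and ChREBP are the main known activators of these genes.

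Total counts were 104842873 to 140582588 per library. Zfp36l1 itself had 212.1 to 323.5 CPM (counts scaled by TMM-normalised library size) in control libraries and 57.9 to 76.9 in knockout libraries. Whether the libraries came from separate mice is not stated in the labels, and p-values then measure only the spread between these libraries, which may be technical. Bulk liver RNA also cannot tell fewer cells of a type from less RNA per cell. Unless stated otherwise, levels are CPM, changes are given as log2 of knockout over control with a standard error (SE), and each adjusted p comes from the quasi-likelihood test of edgeR, adjusted by Benjamini-Hochberg over 14861 genes.

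Fatty acid synthesis enzymes were higher in knockout liver at nearly every step. Of the 10 genes, 9 rose and 0 fell at adjusted p under 0.05. Across all tested genes 3.51% rose and 1.88% fell (5.39% in either direction), and among the 724 tested genes at least as high in controls as Elovl6, the lowest of the 10 by control mean, 6.22% rose. The median log2 fold change of the 10 was 1.04, against −0.01 for all tested genes. All 10 had a log2 fold change above 0, as did 48.4% of all tested genes, and 6 of the 10 rose at least 2-fold, against 0.915% of all tested genes. The 4 knockout libraries lay above the 4 control libraries for 9 of the 10 genes, a pattern seen for 7.17% of all tested genes, while 7.93% showed the opposite order. Acacb was the exception. Together the 10 transcripts took 1.96% to 3.90% of all counts in control libraries and 5.53% to 7.06% in knockout libraries, and without Scd1 the range was 0.560% to 0.923% against 1.28% to 1.74%. The number of the 10 that passed was 4 without knockout library 1, 5 without knockout library 2 and 4 without knockout library 3, fits in which 1.35%, 2.02% and 1.13% of all tested genes rose. Without both libraries numbered 4 it was 7, and 2.32% of all tested genes rose.

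**Figure D1:**
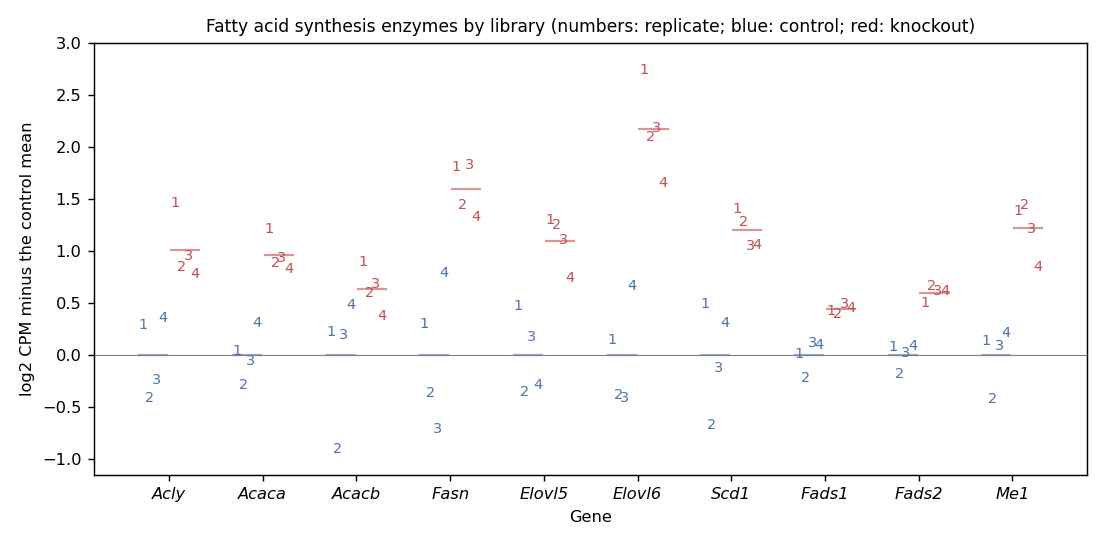
Level of the 10 enzymes in each library, as log2 CPM minus the mean of the control libraries (y axis), for each gene (x axis). Digits are replicate numbers, blue for control and red for knockout, and short lines are group means (n = 4). Red digits lie above all blue digits for every gene but Acacb.

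The 3′ UTRs were searched for UAUUUAU, the core of the AU-rich element that the ZFP36 family binds, because the deleted gene encodes such a protein. Among the annotated 3′ UTRs of the 10 genes (GENCODE M21, mm10), 5 held at least 1 match and 7 matches were found in all. Elovl6, with the longest 3′ UTR of the 10 at 5005 bases, had 3 matches within a stretch of overlapping windows, and Acaca, Fasn, Elovl5 and Me1 had 1 each. Acly, Acacb, Scd1, Fads1 and Fads2 had 0. The heptamer was present in 29.6% of 13695 tested genes with a 3′ UTR, and in 40.0% of the 7440 whose 3′ UTR length lay within the range of the 10. The matches are shown on the transcript strand with the heptamer in capitals, and a match is a description of the letters only.
Acaca, chr11:84399871-84399899, plus strand: acccgauucagUAUUUAUuagcccagcua
Fasn, chr11:120807518-120807546, minus strand: uuaaauucucaUAUUUAUugcauugcugg
Elovl5, chr9:77984189-77984217, plus strand: uguggguuugaUAUUUAUguaaauaccag
Elovl6, chr3:129636612-129636640, plus strand: acuaucauuauUAUUUAUuuauuguauuu
Elovl6, chr3:129636625-129636653, plus strand: uuuauuuauugUAUUUAUauccaaugcca
Me1, chr9:86582524-86582552, minus strand: cuuacuguggaUAUUUAUguuuucucuug

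The other Elovl6 match overlaps the first one shown. Among the 5 genes with a match, log2 fold changes were 0.95 to 2.15, and among the 5 without one they were 0.43 to 1.14. The ranges overlapped. Of all tested genes with the heptamer in the 3′ UTR, 6.11% rose and 0.789% fell in edgeR. Of those with a 3′ UTR without it, 2.68% rose and 2.36% fell. These shares were not matched for 3′ UTR length. The part of the motif in the changes was not tested.

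Acly encodes ATP citrate lyase, which makes cytosolic acetyl-CoA from exported citrate (ENSMUSG00000020917.17, chromosome 11, 100476353 to 100528000, minus strand, mm10). Control libraries 1 to 4 had 981, 602, 681 and 1028 CPM, and knockout libraries 1 to 4 had 2210, 1443, 1554 and 1378 CPM. All knockout libraries lay above all controls, and knockout library 1 stood above the other three. The mean doubled from 823 ± 213 to 1646 ± 383 CPM (SD, n = 4), a log2 fold change of 1.00 (SE 0.21, adjusted p = 0.0296 in edgeR). The call was lost without control library 1, 2 or 3 or knockout library 1, 2 or 3, with adjusted p-values of 0.0554 to 0.0718 and log2 fold changes of 0.83 to 1.10.

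Acetyl-CoA carboxylase makes malonyl-CoA and is encoded by a pair of genes. Acaca encodes the cytosolic enzyme, which supplies fatty acid synthase (ENSMUSG00000020532.18, chromosome 11, 84129672 to 84401651, plus strand), and Acacb encodes the enzyme of the outer mitochondrial membrane, whose malonyl-CoA restrains fatty acid oxidation (ENSMUSG00000042010.16, chromosome 5, 114146535 to 114250761, plus strand). Acaca had 202, 161, 188 and 243 CPM in control libraries and 455, 362, 374 and 349 in knockout libraries. The groups did not overlap, and Acaca rose by 0.95 (SE 0.13, adjusted p = 0.00667 in edgeR), a call kept in each of the 8 fits that left out 1 library. Acacb had 374, 171, 368 and 449 CPM in control libraries and 598, 486, 515 and 416 in knockout libraries. Control library 2 was far below the other controls, and knockout library 4 lay below control library 4. The log2 fold change of Acacb was 0.56 (SE 0.26, adjusted p = 0.259), which did not pass, and no setting tried brought it past the threshold (lowest adjusted p = 0.114). Without control library 2 its log2 fold change was 0.35 (adjusted p = 0.197). That Acaca passed and Acacb did not is no test of a difference between them. The log2 ratio of Acaca to Acacb within a library was 0.32 higher in the knockout libraries (exact two-sided permutation p = 0.143). The difference was 0.53 without control library 2, whose ratio of −0.09 lay above all knockouts (−0.46 to −0.26), while the other controls (−0.97 to −0.89) lay below them. The size of the difference thus depended on that library.

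Fasn encodes fatty acid synthase, the multifunctional enzyme that builds palmitate (ENSMUSG00000025153.9, chromosome 11, 120805846 to 120824547, minus strand). Control libraries had 2863, 1809, 1422 and 4022 CPM, and knockout libraries had 8137, 6349, 8246 and 5835 CPM. Fasn was the most variable of the 10 genes among controls, with 2.83 times between the highest and the lowest control library, and the knockout libraries still lay above all of them. Its mean went from 2529 ± 1167 to 7142 ± 1231 CPM (SD, n = 4), a log2 fold change of 1.50 (SE 0.31, adjusted p = 0.0307 in edgeR). A fit with a block for replicate number gave an adjusted p of 0.0635. The call was also lost without control library 1 or 2 or any 1 of the 4 knockout libraries (adjusted p = 0.0502 to 0.0840).

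The Fasn and Elovl5 promoters are shown because they held most of the motif matches in the set. Promoters of 8 of the 10 genes, 9 sequences in all, were matched in the RefSeq table for GRCm38.p6, which has no entry for Scd1 or Fads1. Each runs from 250 bases before the annotated start to 50 after it. They were searched on both strands for CACGTG, the E-box bound by ChREBP and USF, for TCACNCCAC, the core of the sterol regulatory element, and for CCAAT, the NF-Y box. CCAAT was found in 5 of the 9 sequences, against 37.4% of all promoters in the table, CACGTG in 1 of 9 against 7.15%, and TCACNCCAC in 0 of 9 against 1.24%. The CCAAT matches of Acacb (−87) and Me1 (−208) come from windows inside the genes. No match says only that these letters are not in this window. In Fasn a CCAAT on the opposite strand starts at position −90, and matches on either strand at −62 and −59 overlap each other. In Elovl5 CACGTG starts at −161 and CCAAT lies on the opposite strand at −71 and −17. Matches are in capitals, 5′ to 3′ on the gene's strand.
Fasn, chr11:120824498-120824797, minus strand: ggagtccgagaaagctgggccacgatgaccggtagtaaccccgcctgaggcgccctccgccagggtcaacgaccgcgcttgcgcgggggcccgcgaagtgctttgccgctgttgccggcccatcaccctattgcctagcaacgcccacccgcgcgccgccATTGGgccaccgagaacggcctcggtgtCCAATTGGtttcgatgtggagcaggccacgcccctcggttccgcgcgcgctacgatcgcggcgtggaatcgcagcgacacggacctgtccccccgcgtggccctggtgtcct
Elovl5, chr9:77917115-77917414, plus strand: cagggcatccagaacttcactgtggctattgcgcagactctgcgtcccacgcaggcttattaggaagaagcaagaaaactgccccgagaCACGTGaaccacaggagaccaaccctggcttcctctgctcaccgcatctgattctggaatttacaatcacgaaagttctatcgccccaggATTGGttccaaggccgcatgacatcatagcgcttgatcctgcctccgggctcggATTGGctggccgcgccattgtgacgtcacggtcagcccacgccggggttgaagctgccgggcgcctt

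Elongases add carbon units to an existing fatty acid, and Elovl6 and Elovl5 encode enzymes with different substrates. ELOVL6 lengthens palmitate and other saturated and monounsaturated chains, while ELOVL5 acts mainly on polyunsaturated ones. Elovl6 (ENSMUSG00000041220.10, chromosome 3, 129532355 to 129638495, plus strand) had 198, 137, 135 and 284 CPM in control libraries and 1202, 767, 815 and 566 in knockout libraries. Its log2 fold change was the largest of the 10 at 2.15 (SE 0.31, adjusted p = 0.00953 in edgeR), a 4.44-fold change, and the call held in every fit that left out 1 library. By fold change it ranked 74 of 14861 tested genes. Elovl5 (ENSMUSG00000032349.13, chromosome 9, 77917364 to 77984519, plus strand) had 1234, 700, 1006 and 733 CPM in control libraries and 2201, 2118, 1927 and 1490 in knockout libraries. The groups did not overlap, and the gene rose by 1.07 (SE 0.20, adjusted p = 0.0188). Its call was lost without knockout library 1, 2 or 3 (adjusted p = 0.0506 to 0.0574). The log2 ratio of Elovl6 to Elovl5 was 1.07 higher in knockout libraries, with control library 4 (−1.37) above knockout libraries 2 (−1.47) and 4 (−1.40), so the groups overlapped (exact two-sided permutation p = 0.0857).

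Scd1 encodes stearoyl-CoA desaturase, which puts the first double bond into palmitate and stearate to make palmitoleate and oleate (ENSMUSG00000037071.3, chromosome 19, 44394455 to 44407879, minus strand). Control libraries 1 to 4 held 29714, 13299, 19473 and 26221 CPM of it, and knockout libraries 1 to 4 held 56106, 51318, 43901 and 44215 CPM. The lowest knockout library was thus above the highest control, and the controls spread 2.23-fold against 1.28-fold among the knockouts. Scd1 rose by 1.14 (SE 0.23, adjusted p = 0.0240 in edgeR), and it was the most abundant of the 10 in every library. The call was lost without control library 3 or knockout library 1, 2 or 3 (adjusted p = 0.0503 to 0.0682), and without both libraries numbered 4 (adjusted p = 0.0651).

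Fads1 and Fads2 encode the delta-5 and delta-6 desaturases, which make arachidonic acid and docosahexaenoic acid from dietary precursors and lie side by side on chromosome 19. Fads1 (ENSMUSG00000010663.5, 10182888 to 10196877, plus strand) had 671, 570, 718 and 709 CPM in control libraries and 891, 874, 931 and 909 in knockout libraries. Fads2 (ENSMUSG00000024665.8, 10062765 to 10101746, minus strand) had 901, 749, 861 and 905 CPM in control libraries and 1207, 1346, 1303 and 1302 in knockout libraries. Both genes were tightly grouped, with 1.07 and 1.12 times between the highest and lowest knockout library, and neither overlapped between the groups. Their changes were small, 0.43 for Fads1 (SE 0.09, adjusted p = 0.0227 in edgeR) and 0.59 for Fads2 (SE 0.08, adjusted p = 0.00682). The Fads1 call was lost without control library 1 or knockout library 1 or 3 (adjusted p = 0.0606 to 0.0733) and without both libraries numbered 4 (adjusted p = 0.0532), while that of Fads2 held in each of the 8 fits that left out 1 library. The log2 ratio of Fads2 to Fads1 was 0.16 higher in the knockout with groups that did not overlap, at the smallest p the exact two-sided permutation test over 70 assignments can give (p = 0.0286). It was higher in the knockout in all 4 same-numbered pairs.

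Me1 encodes cytosolic malic enzyme, which yields NADPH and pyruvate from malate (ENSMUSG00000032418.15, chromosome 9, 86581371 to 86695953, minus strand). It had 638, 435, 617 and 673 CPM in control libraries and 1519, 1586, 1348 and 1050 in knockout libraries. Every knockout library exceeded every control, knockout library 4 by the least. Me1 rose by 1.22 (SE 0.16, adjusted p = 0.00645 in edgeR), the lowest adjusted p of the 10 genes, and the call held in every fit that left out 1 library.

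Some reads may belong to overlapping genes. The antisense gene Gm35986 overlaps the start of Elovl6 with 161 to 1074 counts per library against 17380 to 153024 for Elovl6, and A330041J22Rik overlaps the start of Me1 with 15 to 95 counts against 55011 to 193340. Gm11437 lies within Acaca on the opposite strand with 540 to 1325 counts against 20351 to 57882. Gm35986 (log2 fold change 1.51, adjusted p = 0.0284 in edgeR) and A330041J22Rik (1.75, adjusted p = 0.0271) also rose. Gm11437 did not pass (0.36, adjusted p = 0.435). The strand setting of the counting is not given in the sources used here, so the reads of a gene and its antisense partner cannot be told apart.

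Scaled per gene length, the order of levels differed from the order by counts. CPM per kilobase of deposited gene length (RPKM) averaged 4585 ± 1506 for Scd1 in control libraries (SD, n = 4), more than 10 times any other of the 10 genes. Elovl5 (330 ± 90.4), Fads2 (294 ± 25.1) and Fasn (254 ± 117) came next, and their control libraries overlapped in RPKM. Fads1, Acly and Me1 followed at 193 ± 19.6, 186 ± 48.1 and 165 ± 29.8 RPKM, also overlapping. Acacb, Elovl6 and Acaca were the lowest at 40.2 ± 14.0, 31.7 ± 11.8 and 22.0 ± 3.79 RPKM, with overlapping neighbours. In knockout libraries Fasn moved from rank 4 to rank 2 at 719 ± 124 RPKM, within the range of Elovl5 (695 ± 114), and Elovl6 at 141 ± 44.7 RPKM now lay above Acacb (59.4 ± 8.85) in all 4 libraries. Fads1 was at rank 5 in controls and at rank 7 in knockouts (261 ± 7.10 RPKM), behind Me1 and Acly.

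**Figure D2:**
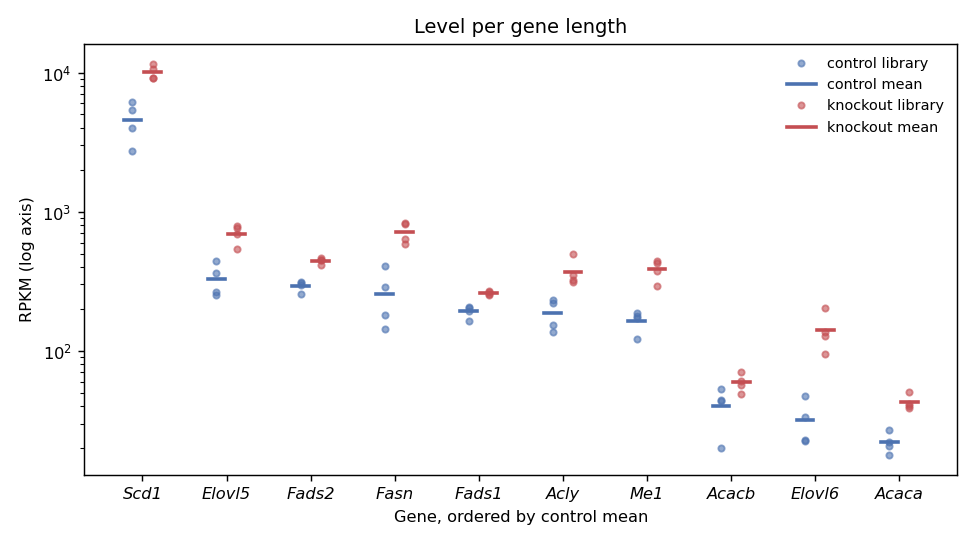
Level per gene length of the 10 enzymes, in RPKM on a log axis, for control (blue) and knockout (red) libraries. Points are libraries and lines are group means (n = 4). Scd1 stands far above the rest in both groups, and Elovl6 moves from below to above Acacb.

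The libraries of a group kept much the same order from gene to gene. Control library 2 was the lowest control for 8 of the 10 genes and control library 4 the highest for 7. Among the knockouts, library 1 was the highest for 6 genes and library 4 the lowest for 7. The median over the 10 genes of log2 CPM relative to the control mean was 0.18, −0.38, −0.02 and 0.31 for controls 1 to 4. For knockouts 1 to 4 it was 1.34, 1.06, 1.00 and 0.80. After subtraction of group means, the 45 pairs of genes had Pearson correlations over the 8 libraries from 0.04 (Fasn with Elovl5) to 0.93 (Acly with Acaca), with a median of 0.67. These correlations share libraries and are given as a description. Elovl5 and Scd1 were highest among controls in library 1, Fads1 in library 3 and the other 7 genes in library 4.

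Among the genes outside the lists examined here whose profile was most like the mean of the 10 over the 8 libraries, after group means were subtracted, were Wbp2 (r = 0.98), Pld6 (0.97), Acat2 (0.97) and Blmh (0.97). They were picked for the highest correlations among all tested genes outside the lists. How high such a choice reaches by chance was not tested, and the values are a description only. Of these 4, Wbp2 rose in the knockout (114 ± 10.9 to 150 ± 6.14 CPM, log2 fold change 0.40, adjusted p = 0.0235 in edgeR). Pld6, Acat2 and Blmh did not pass, with log2 fold changes of −0.15, 0.11 and −0.02. Pld6 was low, with means of 1.48 CPM in control and 1.34 CPM in knockout libraries.

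Ratios within a library do not depend on scaling, and 6 were compared. Scd1 to Fasn was 0.40 lower in the knockout on the log2 scale (control 3.18 ± 0.49, knockout 2.78 ± 0.26, SD, n = 4, exact permutation p = 0.257), and 0.20 lower without control library 3. Me1 to Fasn was 0.38 lower (exact permutation p = 0.343), but 0.11 lower without control library 3 and 0.57 lower without control library 4. Both ratios were lower in the knockout in 2 of the 4 same-numbered pairs. Acly to Fasn was 0.59 lower (exact permutation p = 0.0571), and lower in the knockout in all 4 same-numbered pairs. Adjusted over the 6 ratios the p-values were 0.171 to 0.343. At least 4 of the 6 would have to reach the smallest p together for any to pass, so the adjusted values do not show that the ratios were alike in the groups. A sign-flip test over same-numbered pairs cannot go below p = 0.125, which Fads2 to Fads1 and Acly to Fasn reached in that exact test. Among the controls the SD of Fasn was 46.1% of its mean, the highest of the 10 genes.

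**Figure D3:**
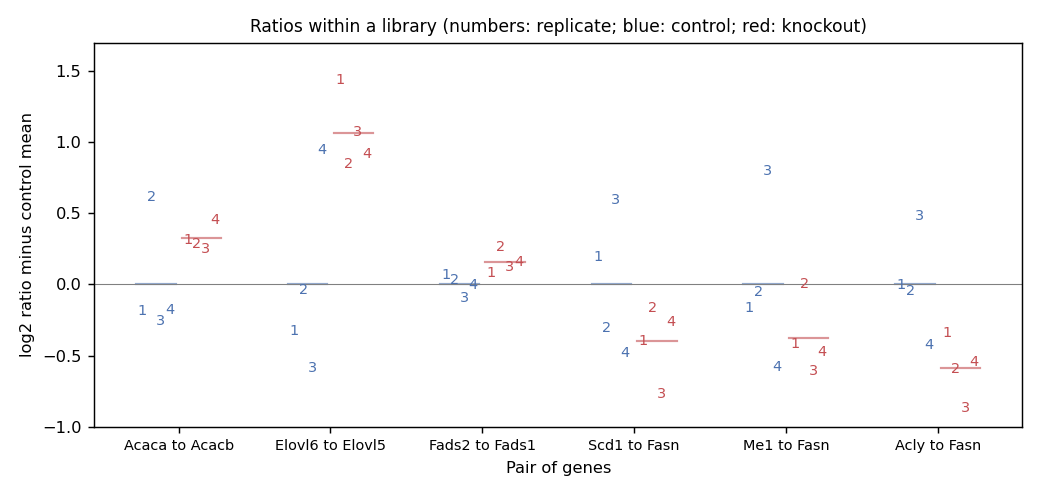
Log2 ratio of CPM between 2 genes within each library, minus the control mean of that ratio (y axis), for 6 pairs (x axis). Digits are replicate numbers, blue for control and red for knockout, and lines are group means (n = 4). Only Fads2 to Fads1 has groups that do not overlap.

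Some of the other elongation and desaturation genes rose as well. The counts of the lists that follow stand beside 3.51% of all tested genes that rose and 5.39% that changed, so 0 or 1 gene in so short a list cannot be told from the share over all genes. Counts at an unadjusted p under 0.05 stand beside 3190 of the 14861 tested genes. DESeq2 counts stand beside 1738 genes called of 14557 with an adjusted p. Of 10 tested genes of the elongation cycle, 3 rose and 0 fell, with a median log2 fold change of 0.33. Elovl2, an elongase of long polyunsaturated chains, had 783 ± 122 CPM in controls and 1574 ± 174 in knockouts and rose by 1.01 (log2, SE 0.12, adjusted p = 0.00424 in edgeR). Hacd2, a dehydratase of the cycle, rose by 0.44 (adjusted p = 0.00786). Hsd17b12, the ketoacyl reductase, rose by 0.33 (adjusted p = 0.0403), and its call was lost under library totals (0.0915) and in 7 of the 8 fits without 1 library, all but the one without knockout library 4 (0.0545 to 0.115). Elovl3 had 620 ± 230 and 968 ± 168 CPM (adjusted p = 0.227), and passed with the replicate block (0.72, adjusted p = 0.0265).

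Among 8 tested desaturase genes and electron donors, 4 rose and 0 fell, with a median of 0.52. Fads6 was lower in all 4 knockout libraries (77.6 ± 3.76 and 65.2 ± 5.21 CPM, log2 fold change −0.25, adjusted p = 0.0848 in edgeR), and 1 gene of the list fell in DESeq2 and under library totals alone. Fads3, which adjoins Fads2, rose by 1.34, with means of 14.0 ± 3.23 and 35.5 ± 10.4 CPM (SE 0.25, adjusted p = 0.0238 in edgeR). Its call was lost with the replicate block (0.0684), without control library 1 or knockout library 2 or 3 (0.0569 to 0.0691) and without both libraries numbered 4 (0.0680). Scd2, Scd3 and Scd4, the neighbours and close relatives of Scd1 on chromosome 19, rose by 0.80, 1.20 and 1.15 (adjusted p = 0.0342, 0.00966 and 0.00892). The Scd2 call was lost without control library 1 or 3 or any 1 knockout library (0.0636 to 0.0928). Scd3 counts were 0.0511% to 0.0610% of Scd1 counts in control libraries and 0.0570% to 0.0608% in knockout libraries, and Scd4 counts were 0.0142% to 0.0182% and 0.0145% to 0.0170%, overlapping between the groups. Scd2 counts were 0.0760% to 0.101% of Scd1 counts in control libraries and 0.0618% to 0.0802% in knockout libraries. Whether reads of Scd1 were counted for these genes was not tested. The cytochrome b5 genes Cyb5a and Cyb5b and the reductase gene Cyb5r3, which bring electrons to the desaturases, did not pass (lowest adjusted p = 0.297, for Cyb5r3).

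**Figure D4:**
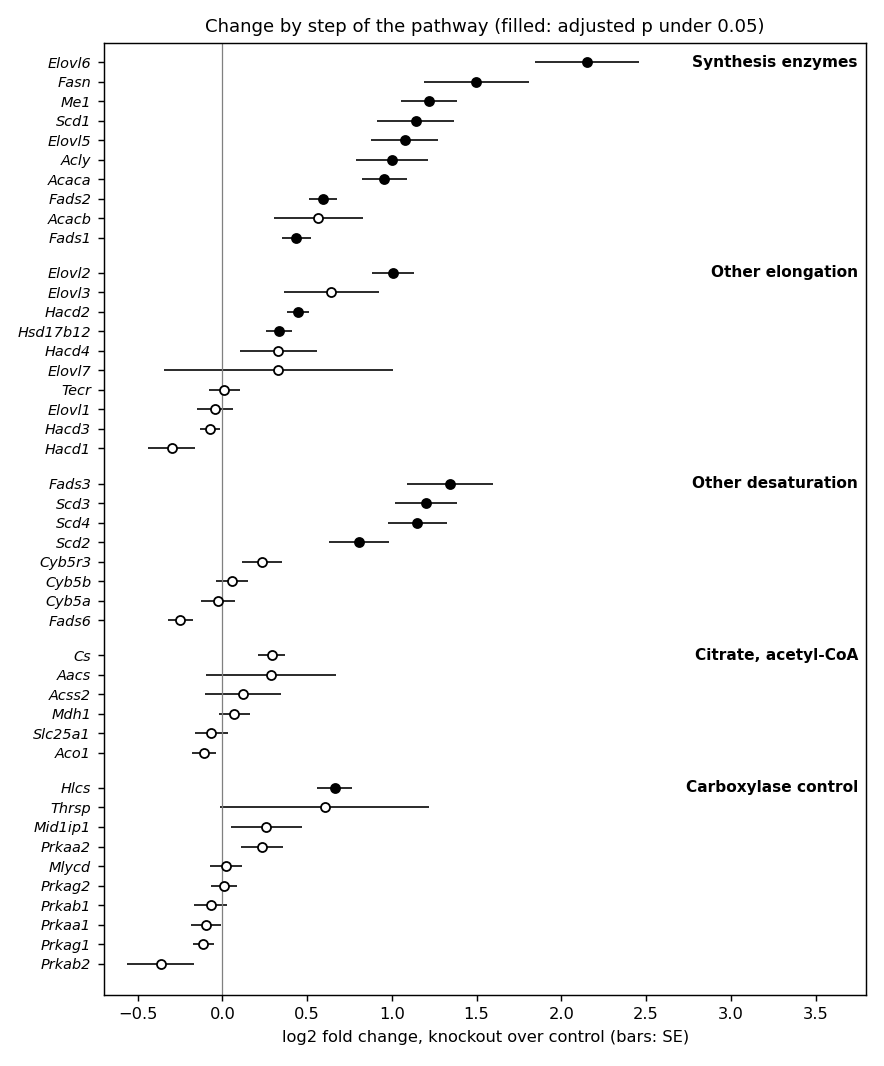
Log2 fold change of knockout over control (x axis, bars are SE) for the 10 synthesis enzymes and for other genes of elongation, desaturation, citrate and acetyl-CoA supply and carboxylase control (y axis). Filled points passed adjusted p under 0.05. All filled points lie to the right of 0, and the citrate and acetyl-CoA group has none.

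Of 6 tested genes of citrate export and acetyl-CoA supply, 0 rose and 0 fell in edgeR at an adjusted p under 0.05, with a median of 0.10. The unadjusted p was under 0.05 for 1 of them, and DESeq2 called 1. Cs, citrate synthase, had the lowest adjusted p (log2 fold change 0.29, SE 0.08, adjusted p = 0.0656), and the citrate carrier gene Slc25a1 had −0.06 (adjusted p = 0.746). Of the 10 tested genes that act on acetyl-CoA carboxylase or malonyl-CoA, 1 rose. It was Hlcs, whose product attaches biotin to carboxylases, with 30.8, 23.4, 27.2 and 32.9 CPM in control libraries and 42.5, 43.3, 46.5 and 48.6 in knockout libraries (0.66, SE 0.11, adjusted p = 0.0106). Thrsp, a lipogenic protein gene, ranged from 61.2 to 577.6 CPM among controls and from 368.2 to 440.9 among knockouts (adjusted p = 0.618). Of 8 other NADPH genes, 1 rose, G6pdx of the pentose phosphate pathway (1.30, adjusted p = 0.0271). Its call was lost without control library 1, 2 or 4 or knockout library 3 (0.0586 to 0.0739) and without both libraries numbered 4 (0.0764). Of 5 long-chain acyl-CoA synthetase genes, 1 rose, Acsl5 (0.41, adjusted p = 0.0399). Its call was lost under library totals (0.0707), in 7 of 8 fits without 1 library, all but the one without control library 3 (0.0553 to 0.118), and without both libraries numbered 4 (0.0940). Of 6 tested mitochondrial fatty acid synthesis genes 0 passed in edgeR, 0 had an unadjusted p under 0.05 and DESeq2 called 0. Their median was −0.02 and the lowest adjusted p was 0.623, for Mecr.

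Among 13 tested genes of transcriptional control, 3 rose and 0 fell, with a median of 0.05. Srebf1, which encodes SREBP-1, had 539 ± 104 and 460 ± 49.9 CPM (log2 fold change −0.23, adjusted p = 0.377 in edgeR), and Mlxipl, which encodes ChREBP, 511 ± 20.2 and 526 ± 58.0 CPM (0.04, adjusted p = 0.825). The counts are of mRNA for whole genes, so neither isoforms nor the activity of the proteins was measured. The 3 that rose were Insig2 (0.93, adjusted p = 0.00418), a retention factor for SREBP, Mlx (0.55, adjusted p = 0.0124), the dimer partner of ChREBP, and Nfyb (0.45, adjusted p = 0.0409), an NF-Y subunit. The Nfyb call was lost under library totals (0.0711), in 7 of 8 fits without 1 library, all but the one without control library 3 (0.0638 to 0.116), and without both libraries numbered 4 (0.133). Insig1 had 0.55 (adjusted p = 0.0781), and passed with the replicate block (0.53, adjusted p = 0.0185).

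Feeding state and time of day move lipogenic genes in mouse liver, and genes that report on them are given beside the enzymes. Of 10 genes that respond to feeding or fasting, 2 rose and 0 fell, with a median of 0.59. They were Pklr, the pyruvate kinase gene induced by carbohydrate (541 ± 173 to 1058 ± 75.9 CPM, 0.97, adjusted p = 0.0292 in edgeR), and Igfbp1, which insulin lowers (72.2 ± 30.4 to 306 ± 83.2 CPM, 2.08, adjusted p = 0.0106). The first call was lost without control library 1 or 2 or knockout library 1, 2 or 3 (0.0509 to 0.0811) and the second with the replicate block (0.0544) and without both libraries numbered 4 (0.0538). The summed level of the 10 was 4607 to 7074 CPM in control and 8233 to 11066 CPM in knockout libraries. Of 12 clock genes 0 passed in edgeR, 2 had an unadjusted p under 0.05 and DESeq2 called 0. Their median was −0.38 and the lowest adjusted p was 0.182, for Ciart. With the replicate block 1 fell, Nr1d1, a repressor of the clock (−0.84, adjusted p = 0.00957, against −0.88 and 0.214 without the block). It was lower in the knockout in every same-numbered pair, with 66.1, 44.5, 93.4 and 128 CPM in controls 1 to 4 and 30.8, 33.0, 54.9 and 61.4 CPM in knockouts 1 to 4. Dbp, a clock output gene, had 1.21, 0.308, 0.723 and 26.3 CPM in controls 1 to 4. Its knockout values, in the same order, were 0.314, 1.39, 0.832 and 6.92 CPM, so both libraries numbered 4 stood apart. Acly, Acaca, Acacb, Fasn, Elovl6 and Me1 were highest in control library 4 among the controls, and lowest in knockout library 4 among the knockouts. Without both libraries numbered 4, Fasn had a log2 fold change of 1.90 (adjusted p = 0.0216 in edgeR) and Elovl6 of 2.56 (adjusted p = 0.00628). In the same fit Scd1 (1.28, adjusted p = 0.0651) and Fads1 (0.46, adjusted p = 0.0532) lost their calls. The part of feeding state and collection time in the changes was not tested.

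Markers of the cell types that a liver sample can hold were compared as summed CPM. Hepatocyte markers summed to 75928 to 83427 CPM in control and 90511 to 101045 CPM in knockout libraries, and 0 of 8 passed in edgeR (lowest adjusted p = 0.0643, for Ttr). Of the 8, 3 had an unadjusted p under 0.05, as did 3190 of all 14861 tested genes. DESeq2 called 3 of them, against 1738 of 14557 genes. Most of the sum was Alb, with 54749 to 62345 CPM in control and 68173 to 75945 CPM in knockout libraries. The median log2 fold change of the 8 was −0.01, with 4 above 0 and Cps1, Apoa1, Asgr1 and Hnf4a below it. With the replicate block Ttr passed (0.41, adjusted p = 0.0351). Adipose tissue also expresses the synthesis enzymes strongly. Of its 6 markers 2 could be tested and 0 passed in edgeR, with 1 at an unadjusted p under 0.05 and 1 called by DESeq2. With the replicate block Adrb3 passed (0.65, adjusted p = 0.0248), as did the endothelial marker Lyve1 (0.77, adjusted p = 0.0231). The sum of all 6 was 9.58 to 13.5 CPM in control and 16.7 to 23.9 CPM in knockout libraries, mostly Adrb3, while Lep had 0 counts in all 8 libraries and Adipoq, Plin1 and Retn had at most 8 counts in any. Kupffer cell, endothelial, stellate and lymphocyte markers had 0 members past the threshold in edgeR, and their summed CPM overlapped between the groups. Of these 4 lists only the endothelial one had a gene with an unadjusted p under 0.05 (1 gene) or a DESeq2 call (1 gene). The part of cell composition in the enzymes' changes was not tested. Of the cholangiocyte markers Sox9 fell (−1.18, adjusted p = 0.0242 in edgeR). The Sox9 call was lost without control library 1 or 2 or knockout library 2, 3 or 4 (0.0544 to 0.0745). It was also lost without both libraries numbered 4 (0.0811). Spp1, Krt19, Krt7 and Epcam did not pass. Of the 5 tested cholangiocyte markers, 2 had a log2 fold change above 0. The sum of all 6 was 42.1 to 56.9 CPM in control and 30.3 to 44.8 CPM in knockout libraries, so the groups overlapped.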

How the data were processed

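The authors deposited raw counts in 1 table, with a row for each gene symbol, 8 library columns and a column of gene lengths in bases. Library names in the sample descriptions tied each column to its sample. The build was mm10, per the submitters' processing notes, and any aligner, counter, annotation or strand setting was not given in the sources used here. Total counts were 104842873 to 140582588 per library, and small counts were even in a median of 69.4% of values from 1 to 20, which is why halved counts (divided by 2) were tried. filterByExpr kept 14861 genes and left out 10378. Counts were TMM-normalised and tested with edgeR 4.0.16 (glmQLFit, robust, and glmQLFTest) in R 4.3.3, at a Benjamini-Hochberg adjusted p under 0.05. The code was run on simulated counts with the same dispersion for all genes and no pairing of libraries. That run checks the code and not how well the fit suits these data. SE was taken as the size of the log2 fold change over the root of F, an approximation. RPKM used the deposited lengths. Log2 CPM used a prior count of 2.

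The genes and lists were chosen with earlier results of these data known. Named genes are the 10 enzymes, Zfp36l1, up to 4 genes of each list past the threshold or else its lowest adjusted p, and the 5 genes of most similar profile, of which 1 is not reported here. Other genes were named after their values were seen. Alternatives were DESeq2 1.42.0, limma 3.58.1 voom with quality weights, library totals alone, no filter, a filter of 1 CPM in 4 libraries, the replicate block, leaving out each library and, chosen after seeing the data, leaving out both libraries numbered 4 and a sign-flip test of the ratios over same-numbered pairs. Replicate numbers 1 to 4 come from the sample titles, which do not say what they share. Same-numbered libraries correlated at 0.17, 0.39, 0.31 and 0.40 after group means were subtracted. The highest correlation of a control with a knockout of another number was 0.13. Same-numbered libraries were therefore treated as pairs in the replicate block and the sign-flip test. The main fit and the permutation tests took no account of pairs. Positions, 3′ UTRs (longest among basic protein-coding transcripts) and overlaps come from GENCODE M21 for GRCm38, matched by symbol.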

Additional observations from a re-analysis of the deposited data

Results flagged for a closer look

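Each group of 4 libraries was checked for a single library far from the other three, over the 10 enzymes and 6 ratios. The log2 ratio of Acaca to Acacb in the controls met the criterion: it was −0.89, −0.09, −0.97 and −0.89 in control libraries 1 to 4, and the gap of library 2 to its nearest neighbour was 0.909 of the whole range, above the critical value of Dixon's test for 4 values. In control library 2 Acacb was 171 CPM against 368 to 449 CPM in the other controls. Such a check marks about 1 in 20 groups by chance, and 1 of 32 groups was marked.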

How the results depend on the processing

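The log2 fold change stayed above 0 for all 10 enzymes in all 16 other fits. The number past the threshold was 9 with DESeq2, limma with quality weights, library totals alone, either other filter and halved counts, and 8 with the replicate block, where Fasn was lost (1.60, adjusted p = 0.0635). The block changed no other call among the 10. Leaving out 1 library gave 4 to 9. Ranges of log2 fold changes over those 8 fits were 0.83 to 1.13 for Acly, 1.30 to 1.82 for Fasn, 0.35 to 0.73 for Acacb (never past the threshold), 0.97 to 1.25 for Elovl5, 0.96 to 1.32 for Scd1 and 0.37 to 0.47 for Fads1, with calls lost in 6 (Acly), 6 (Fasn), 3 (Elovl5), 4 (Scd1) and 3 (Fads1) fits. Without both libraries numbered 4, Scd1 (1.28) and Fads1 (0.46) did not pass. Over all genes 801 changed (521 higher and 280 lower), against 1738 with DESeq2, 1730 under library totals alone (392 higher and 1338 lower, with the median of all genes moved by −0.11), 1450 with limma, 211 to 967 without 1 library and 443 without both libraries numbered 4. Of 126 tested genes in the other lists 16 changed, against 27 with DESeq2 and 8 to 15 without 1 library. The replicate block ended the calls of Fads3 and Igfbp1 and added Elovl3, Insig1, Nr1d1, Ttr, Adrb3 and Lyve1. Fits with fewer libraries have fewer residual degrees of freedom, and the cause of the shifts was not tested.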
